A study of Mus musculus with 4 samples.

Results

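The genes described here are 9 genes tied to macrophage identity and to efferocytosis, the engulfment of dying cells: Mertk, Axl, Trem2, C1qa, C1qb, C1qc, Csf1r, Maf and Gpnmb. They were chosen by function, with earlier results of these data known, and they make up 9 of the 18194 genes that could be read on the array. Every probe set annotated to them was taken, 21 in all, and for each gene the one with the highest 4-array mean stands for the gene. The cells were dendritic cells grown from C57BL/6 mouse bone marrow for 7 days with 10 ng/ml each of the cytokines GM-CSF and IL-4, and then selected for CD11c, with a stated purity of 95%. Gene expression was measured on 2 arrays of cells exposed for 12 hours to SAHA, at a dose labelled 500 nm, and on 2 arrays of cells exposed to diluent (control), with marrow from at least 3 mice in each experiment. SAHA, or vorinostat, blocks histone deacetylases. The labels describe biological replicates but give no separate marrow pool for each, so a p-value here reflects only how far these arrays differ, which may be technical.

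Macrophages recognise dying cells through phosphatidylserine exposed on the dying cell's surface. Bridging proteins such as GAS6 and protein S coat this lipid and bind the receptor tyrosine kinases MERTK, AXL and TYRO3, while C1q, the recognition molecule of the classical complement pathway, binds dying cells and immune complexes. TREM2 senses lipids and signals through the adaptor TYROBP, CSF1R carries the survival signal of macrophages, and the transcription factor MAF helps to maintain their identity. Cultures of marrow with GM-CSF are known to contain cells with macrophage features beside dendritic cells. In such bulk RNA, fewer cells of a type and less RNA per cell cannot be told apart.

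The label of the cells was checked against marker genes. On all 4 arrays Itgax, which encodes CD11c, lay between 12.44 and 13.40 log2 units, and Cd74, the invariant chain of MHC class II, between 14.17 and 14.23. The cells were selected for CD11c, and Itgax is also on the list of lipid-associated macrophage genes used below. Some other dendritic cell markers also read high, with H2-Aa at 14.20 to 14.45 and Ccl22 at 13.62 to 13.85. Ccr7 lay at 12.39 to 13.07. Others read lower, with Zbtb46 at 7.76 to 7.93, Flt3 at 6.72 to 7.48, Kit at 5.31 to 5.56 and Xcr1 at 3.82 to 4.24. These values do not settle the type of the cells. Some macrophage markers were also well above the low end of the array. Adgre1, an adhesion receptor used as a general macrophage marker, lay between 11.88 and 11.99 and Lyz2, which encodes lysozyme, between 14.72 and 14.78. Of 27 macrophage markers 2, Cd163 and Timd4, lay under the 25th percentile of their array on all 4 arrays, and Lyve1 (3.74 to 4.03) did so on 3. Vsig4 (4.07 to 4.26), Clec4f (4.73 to 5.25) and Folr2 (4.74 to 5.38) lay above it but near or under the array medians of 5.34 to 5.35. Mrc1 (9.28 to 9.81) and Siglec1 (6.29 to 6.98), also found on tissue macrophages, lay above the 25th percentile on every array. Pearson's r across the 18194 genes, which are not independent of each other, was 0.995 within SAHA, 0.993 within control and 0.982 to 0.989 for a SAHA array set against a control array.

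Mertk and Trem2 had lower values in both SAHA arrays than in either control array, by 1.89-fold and 1.62-fold on average. Axl was 1.29-fold higher. Csf1r and Gpnmb lay within 0.04 log2 units between the groups, and the 3 C1q chains and Maf varied more between arrays of the same group than between the groups. No member passed the threshold, a Benjamini-Hochberg adjusted p under 0.05 over all genes in limma, which fits a linear model to each gene and pools the spread across genes. The count was 0 higher, where 1.52% of all genes passed, and 0 lower, where 0.709% did. At an unadjusted p under 0.05 there were 2 members, Mertk and Trem2, against 18.1% of all genes. The members' median log2 change was -0.04, and that of all genes was -0.05. For a single gene the smallest two-sided p of an exact permutation test with 2 against 2 arrays is 0.333, and so few arrays limit how precisely any change is known.

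**Figure D1:**
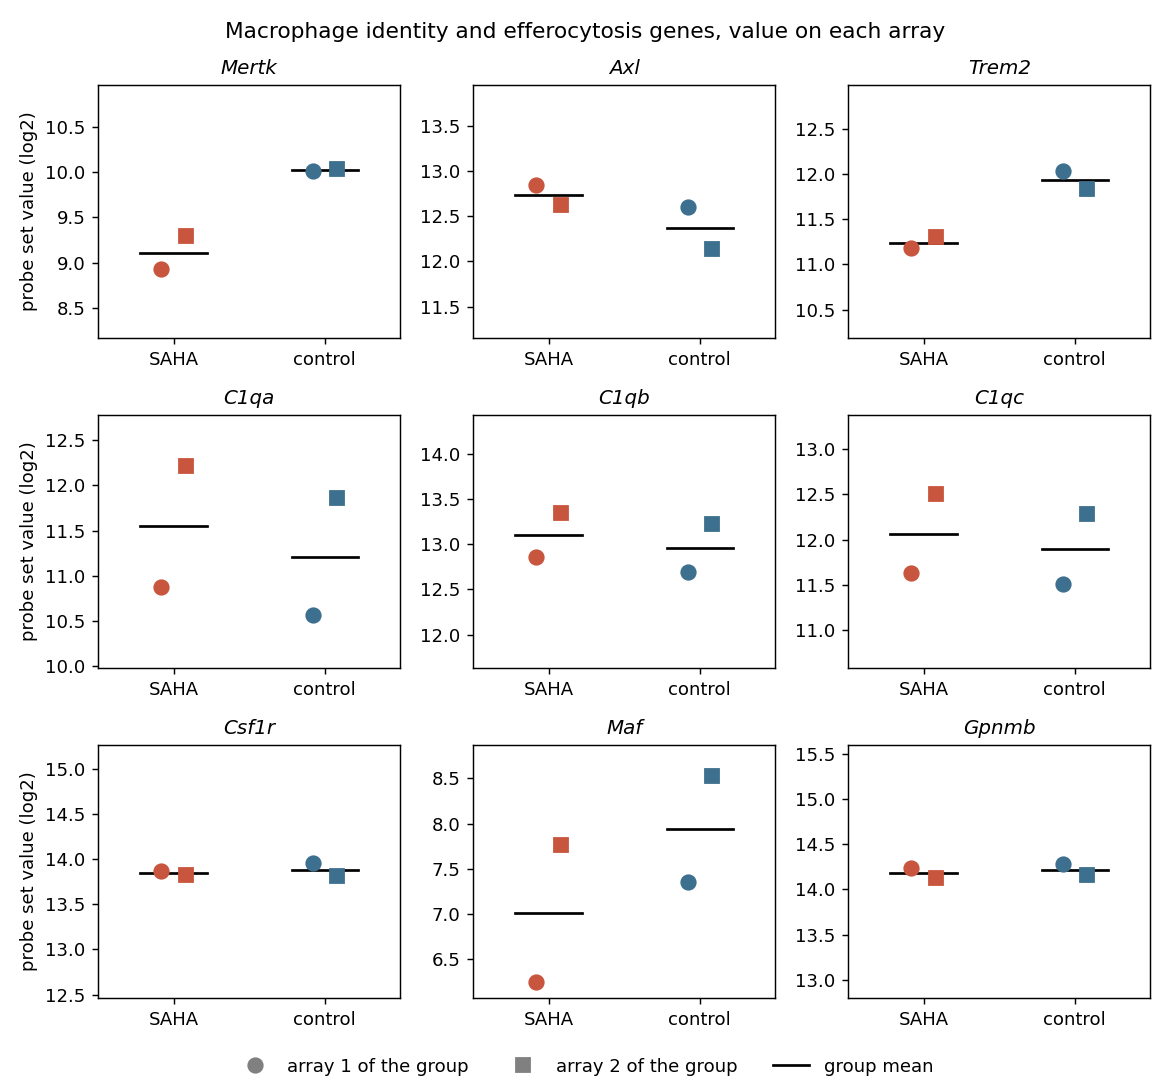
Log2 value of each member (vertical axes, all spanning the same number of log2 units) on the 2 SAHA and 2 control arrays, with circles for the array numbered 1, squares for the array numbered 2 and lines for group means. Mertk and Trem2 lie lower on both SAHA arrays, at 8.92 to 9.29 and 11.18 to 11.30, while the 3 C1q genes and Maf differ mainly between arrays of the same group.

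The receptors for dying cells and lipids are described first. Mertk, the receptor tyrosine kinase that macrophages use to engulf dying cells, was read by its single probe set, 1422869_at. Its values were 8.92 and 9.29 log2 units on the SAHA arrays, against 10.02 and 10.03 on the control arrays. The groups did not overlap, and the control arrays were close together while the SAHA arrays were 0.36 apart. The log2 change was -0.92 ± 0.17 (SE, n = 2 per group, limma adjusted p = 0.0509), with a 95% interval of -1.32 to -0.52. This p lay near the threshold, and Mertk passed it, at 0.0452, when the spread was estimated robustly. Without each array in turn its change was -1.10 to -0.73, and it did not pass.

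Trem2, the lipid receptor of macrophages and microglia, had values of 11.18 and 11.30 log2 units on the SAHA arrays, against 12.03 and 11.83 on the control arrays. The groups did not overlap here either, and the difference exceeded the range within each group. The log2 change was -0.69 ± 0.13 (SE, limma adjusted p = 0.0553), with a 95% interval of -1.0 to -0.38. This probe set, 1421792_s_at, carries the suffix of sets that may match more than 1 transcript. The second one, 1421226_at, was at 4.84 and 4.74 on the SAHA arrays and 4.83 and 4.96 on the control arrays, and showed a change of -0.10. Averaged over both probe sets the change was -0.40.

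Axl, the other phosphatidylserine-linked receptor kinase among the members, lay on the opposite side. Its probe set 1423586_at had values of 12.84 and 12.63 log2 units on the SAHA arrays, against 12.60 and 12.13 on the control arrays. The lower SAHA array and the higher control array were nearly level, so the groups were barely separated. The log2 change was 0.37 ± 0.18 (SE, limma adjusted p = 0.337), with a 95% interval of -0.05 to 0.79, and the range within control, 0.46, was larger than the change. A second probe set, 1438621_x_at, lay under the 25th percentile on all 4 arrays and gives no reading of Axl.

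Beyond the members themselves, such separation was common on these arrays. Axl was the 1 member with both SAHA arrays above both control arrays, a pattern shown by 21.1% of all genes. Mertk and Trem2 were the 2 members with both SAHA arrays below both control arrays, a pattern shown by 29.6%. The remaining 6 members overlapped between the groups. Only for Mertk and Trem2 among the members did the group difference exceed the range within each group. The share of all genes with this pattern was not counted, so the pattern cannot be used to set these 2 apart.

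The promoter windows of Mertk and Trem2 are shown because both genes were lower on both SAHA arrays. They come from RefSeq on build GRCm38.p6 and run from 250 bases before to 50 bases after the annotated start, 5′ to 3′ on the strand of the gene. The table held 6 of the 9 members, and the others are Maf, Csf1r and C1qa. Mertk lies at chr2:128698665-128698964 on the + strand and Trem2 at chr17:48346151-48346450 on the + strand. Capitals mark matches, on either strand, to 5 motifs: TGCTGA (MAF half-site), GAGGAA (core of the PU.1 site), TCATGTG (M-box of the MITF and TFE factors), TGANTCA (loose AP-1 pattern) and GGGCGG (GC box). N stands for any base. A MAF half-site and a match to the AP-1 pattern can overlap in the letters TGA, and none did so in the windows shown here.
Mertk: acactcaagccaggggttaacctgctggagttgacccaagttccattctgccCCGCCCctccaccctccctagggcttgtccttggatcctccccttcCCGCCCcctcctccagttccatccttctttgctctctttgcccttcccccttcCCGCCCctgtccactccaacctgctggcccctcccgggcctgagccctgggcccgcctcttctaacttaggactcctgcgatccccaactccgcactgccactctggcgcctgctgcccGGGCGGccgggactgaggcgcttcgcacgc
Trem2: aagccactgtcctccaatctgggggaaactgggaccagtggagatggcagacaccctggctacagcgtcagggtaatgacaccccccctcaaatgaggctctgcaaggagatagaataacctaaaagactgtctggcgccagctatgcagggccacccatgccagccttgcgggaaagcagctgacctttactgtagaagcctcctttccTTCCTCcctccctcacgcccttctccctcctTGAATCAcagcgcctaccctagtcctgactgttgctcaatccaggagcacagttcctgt

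The windows of Mertk and Trem2 had no motif of the 5 in common. That of Mertk had 4 GC boxes, with first bases at positions 53, 99, 152 and 271 counted from 1 at the 5′ end of the window, and none of the other motifs. The box at position 271 lay on the strand of the gene and the other three on the opposite strand. A GC box was found in 35.7% of 32851 promoter windows. That of Trem2 had 1 PU.1 core on the opposite strand at position 211, a motif found in 28.3% of windows. It also had 1 match to the loose AP-1 pattern at position 242, with the letters TGAATCA. That pattern, with any middle base, was found in 7.81% of windows. The GC content was 66.0% for Mertk and 56.0% for Trem2, against a median of 52.7% over all windows. These matches describe letters in the windows and show no binding.

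The 3 C1q genes encode the A, B and C chains that assemble into the C1q molecule, and they lie next to each other in the RefSeq gene order as C1qb, C1qc and C1qa. C1qa (1417381_at) had values of 10.88 and 12.22 log2 units on the SAHA arrays, against 10.56 and 11.86 on the control arrays. C1qb (1417063_at) had values of 12.85 and 13.35 on the SAHA arrays, against 12.69 and 13.23 on the control arrays. C1qc (1449401_at) had values of 11.63 and 12.50 on the SAHA arrays, against 11.51 and 12.28 on the control arrays. In each of the 3 genes the array numbered 2 was the higher one in both groups, and the groups overlapped.

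The spread between arrays of 1 group was widest for C1qa, at 2.53-fold between the SAHA arrays and 2.46-fold between the control arrays. For C1qc it was 1.83-fold between the SAHA arrays and 1.71-fold between the control arrays, and for C1qb it was 1.41-fold between the SAHA arrays and 1.45-fold between the control arrays. The log2 changes with SAHA were smaller than these ranges. They were 0.34 ± 0.53 (SE) for C1qa, 0.14 ± 0.23 for C1qb and 0.17 ± 0.34 for C1qc, with limma adjusted p of 0.772 for C1qa and C1qb and 0.821 for C1qc. The 95% interval for C1qa, -0.94 to 1.62, includes a rise of over 1 log2 unit. The 2 further probe sets of C1qb had changes of 0.11 and 0.20 and were also higher on the array numbered 2 in both groups. Without SAHA replicate 2 or without control replicate 1 the change of each C1q gene turned negative, to -0.33 and -0.31 for C1qa, -0.10 and -0.13 for C1qb, and -0.26 and -0.21 for C1qc.

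**Figure D2:**
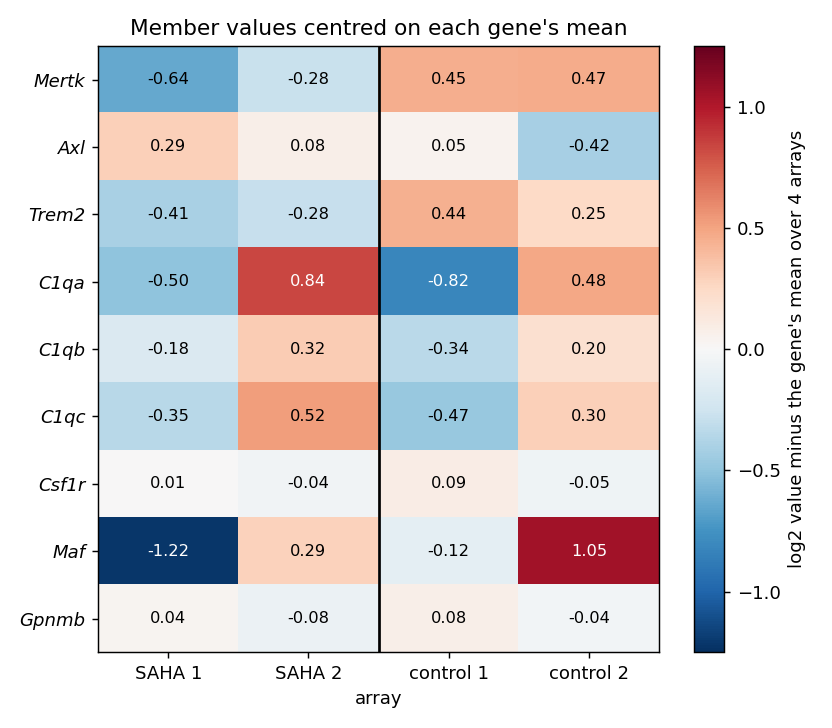
Log2 value of each member minus its own mean over the 4 arrays (colour and printed number), by gene (rows) and array (columns, SAHA left of control). C1qa, C1qb, C1qc and Maf are higher on the array numbered 2 in each group, whereas Mertk and Trem2 are below their mean on both SAHA arrays and above it on both control arrays.

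The promoter windows of C1qb and C1qc are shown because these genes varied together from array to array. They lie at chr4:136886151-136886450 and chr4:136892865-136893164 on the - strand of GRCm38.p6, and capitals mark the same 5 motifs.
C1qb: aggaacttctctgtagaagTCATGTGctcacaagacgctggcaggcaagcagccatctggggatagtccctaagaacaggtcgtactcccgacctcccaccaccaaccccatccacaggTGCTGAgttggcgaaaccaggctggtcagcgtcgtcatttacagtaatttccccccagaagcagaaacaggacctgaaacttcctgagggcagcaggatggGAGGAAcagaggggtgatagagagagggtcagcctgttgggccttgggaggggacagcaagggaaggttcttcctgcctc
C1qc: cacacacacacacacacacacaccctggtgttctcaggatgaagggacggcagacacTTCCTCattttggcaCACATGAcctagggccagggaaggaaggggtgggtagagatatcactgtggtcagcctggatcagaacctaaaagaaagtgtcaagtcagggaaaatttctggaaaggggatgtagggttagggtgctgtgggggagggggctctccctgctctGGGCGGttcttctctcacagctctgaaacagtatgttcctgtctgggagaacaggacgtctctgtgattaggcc

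Both windows held a PU.1 core and an M-box. The M-box was found in 3.77% of all windows, and these were the 2 windows with it among the 6 members in the table. It lay on the strand of the gene at position 20 for C1qb and on the opposite strand at position 73 for C1qc. The PU.1 core lay at position 221 for C1qb and, on the opposite strand, at position 58 for C1qc. C1qb also had the 1 MAF half-site found among the members, at position 120, a motif held by 19.5% of all windows, and C1qc had 1 GC box at position 227. These windows are neighbours on 1 chromosome and are not independent examples.

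Among the regulators of macrophage identity, Csf1r and Maf differed in how tightly they were measured. Csf1r, the receptor for CSF1 and IL-34, read by 1419872_at, had values of 13.87 and 13.82 log2 units on the SAHA arrays, against 13.96 and 13.81 on the control arrays. The groups overlapped, and the log2 change was -0.04 ± 0.10 (SE, limma adjusted p = 0.867). The 95% interval of -0.28 to 0.20 bounds any difference in this probe set to well under 1 log2 unit in this fit. Its values lie high on the arrays, where the highest value was 14.97. The 2 further probe sets of Csf1r, with lower means of 12.93 and 12.60, had changes of -0.11 and -0.21.

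Maf, the basic leucine zipper factor c-MAF, read by 1456060_at, had values of 6.25 and 7.76 log2 units on the SAHA arrays, against 7.35 and 8.52 on the control arrays. SAHA replicate 2 was higher than control replicate 1, so the groups overlapped, and the 2 SAHA arrays were 2.85-fold apart and the 2 control arrays 2.25-fold apart. The log2 change was -0.93 ± 0.55 (SE, limma adjusted p = 0.432), about the same size as that of Mertk but with an interval of -2.26 to 0.40. The change was -0.17 without SAHA replicate 1 and -0.34 without control replicate 2, but -1.68 without SAHA replicate 2 and -1.51 without control replicate 1. Of its 5 further probe sets the next, 1437473_at, had a change of -0.59, and the other four, with values between 3.96 and 5.23, had changes between -0.23 and -0.01. Averaged over all 6 probe sets the change was -0.36.

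Gpnmb, a transmembrane glycoprotein of lysosome-rich macrophages and a known target of MITF in pigment cells, was read by 1448303_at. It had values of 14.23 and 14.12 log2 units on the SAHA arrays, against 14.28 and 14.16 on the control arrays. The groups overlapped, and these values lie near the highest value on the arrays, 14.97. The log2 change was -0.04 ± 0.10 (SE, limma adjusted p = 0.860), with a 95% interval of -0.27 to 0.20. A second probe set, 1439345_at, had values of 9.92 and 9.40 on the SAHA arrays, against 9.94 and 9.38 on the control arrays, a change of -0.0017.

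**Figure D3:**
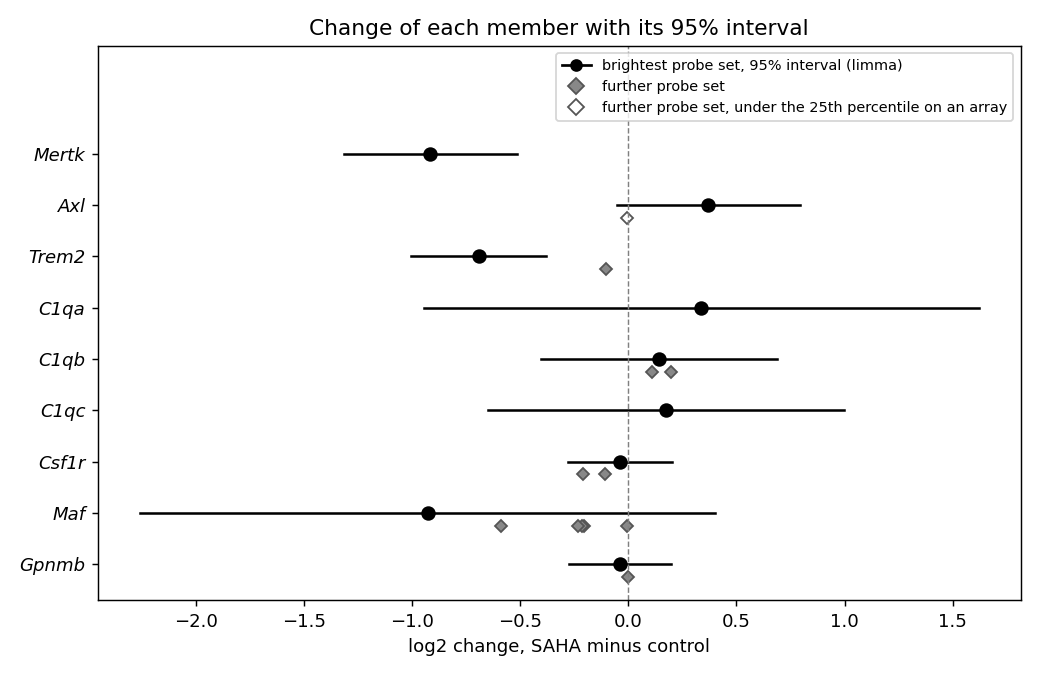
Log2 change, SAHA minus control (horizontal axis), of each member with its 95% interval from limma (circles and lines), and of the 12 further probe sets (diamonds). The intervals of Mertk and Trem2 lie below 0, those of Csf1r and Gpnmb are narrow around 0, and those of Maf and C1qa are wide. Intervals are not adjusted over all genes, and neither Mertk nor Trem2 passed the adjusted p threshold.

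Tested one by one over all 34958 probe sets with 1 gene symbol, none of the 21 probe sets of the members passed, where 1.11% of all probe sets did (limma, either direction). The lowest adjusted p values there were 0.0666 for Mertk and 0.0707 for Trem2.

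The ligands of these receptors included 2 genes that passed in opposite directions among 7 measured. Over all genes 1.52% passed higher and 0.709% lower. Gas6, the bridging ligand of MERTK, AXL and TYRO3, had values of 6.88 and 6.98 log2 units on the SAHA arrays, against 5.72 and 5.91 on the control arrays. It rose 2.17-fold (log2 change 1.12 ± 0.16, SE, limma adjusted p = 0.0291). Its second probe set, 1459585_at, gave -0.26, and averaged over both the change was 0.43 and did not pass (adjusted p = 0.163).

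Clu, which encodes clusterin, a secreted chaperone that binds TREM2, had values of 11.20 and 11.58 log2 units on the SAHA arrays, against 12.61 and 12.97 on the control arrays. It fell 2.64-fold (log2 change -1.40 ± 0.18, SE, limma adjusted p = 0.0238), and its 3 further probe sets gave -1.54 to -1.47. Both Gas6 and Clu lost the threshold without SAHA replicate 1, at an adjusted p of 0.162 for Gas6 and 0.114 for Clu, and Gas6 also without SAHA replicate 2 (0.123).

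The other ligands did not pass. Mfge8, a phosphatidylserine-binding bridge to integrins, had a change of -0.80 ± 0.24 (SE, adjusted p = 0.158), with values of 12.18 and 11.59 on the SAHA arrays, against 12.92 and 12.44 on the control arrays. Pros1, which encodes protein S, had a change of 0.13, and the CSF1R ligands Csf1 and Il34 had changes of 1.28 and -0.24. Csf1 varied widely within the groups, at 10.99 and 9.42 on the SAHA arrays and 9.73 and 8.13 on the control arrays. Apoe, the lipid carrier bound by TREM2, varied more still, at 6.46 and 9.07 on the SAHA arrays and 7.45 and 9.47 on the control arrays. The median of the 7 ligands was -0.24.

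None of 8 adaptors, kinases and sheddases of the members passed, and their median was 0.06. Tyrobp, the signalling adaptor of TREM2, had values of 13.82 and 13.80 log2 units on the SAHA arrays, against 13.94 and 13.89 on the control arrays, a change of -0.11 ± 0.09 (SE, limma adjusted p = 0.586). Syk, the kinase downstream of TYROBP, had a change of 0.43 (adjusted p = 0.153), and Adam10, a protease that sheds TREM2, of 0.32. Tyro3, the third kinase of the MERTK and AXL family, had values of 5.52 and 5.31 on the SAHA arrays and 5.25 and 5.39 on the control arrays. The adaptor Hcst had a change of 0.11.

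Of 8 measured genes of the C1 complex, its inhibitor and C1q receptors none passed (median -0.07). Cd93, a receptor once described as binding C1q, had values of 11.57 and 11.53 log2 units on the SAHA arrays, against 10.76 and 10.03 on the control arrays, a change of 1.16 ± 0.24 (SE, limma adjusted p = 0.0670). Of its 4 further probe sets, 1419589_at, with a mean of 9.83 over the arrays, also had a change of 1.16. The others were dimmer, with means of 4.47 to 5.71, and had changes from -0.04 to 0.22. Lair1, an inhibitory receptor that binds C1q, had a change of -0.74 with overlapping groups, and C1ra, a protease of the C1 complex, of -0.24.

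Among 14 measured transcription factors linked to the members none passed, with 11 changes below 0 and a median of -0.25. In 7 of the 14 both SAHA arrays were below both control arrays (29.6% of all genes), and in none above (21.1% of all genes). Nr1h3, the oxysterol receptor LXR-alpha that drives Mertk in macrophages, had values of 6.12 and 6.51 log2 units on the SAHA arrays, against 7.08 and 7.52 on the control arrays. Its change was -0.98 ± 0.22 (SE, limma adjusted p = 0.0863), and it passed the limma threshold without control replicate 1 (-1.20, adjusted p = 0.0431). Mitf and Tfec, of the MITF family, had changes of -0.37 and -0.47 without overlap between the groups. Spic, a PU.1 relative of iron-recycling macrophages, had a change of -0.64, and Spi1, which encodes PU.1, of -0.22.

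Other receptors for dying cells did not pass either (19 measured, 5 changes above 0 and 14 below, median -0.16). Thbs1, thrombospondin 1, which links dying cells to CD36 and integrins, had a change of 0.79 ± 0.21 (SE, limma adjusted p = 0.124). The scavenger receptors Marco and Msr1 had changes of -0.94 and -0.73, Marco with overlapping groups and Msr1 without. Of 23 measured engulfment and digestion genes P2ry6, the UDP receptor known to drive phagocytosis in microglia, was the 1 that passed (0.709% of all genes passed lower). It had values of 10.29 and 10.20 log2 units on the SAHA arrays, against 10.99 and 10.98 on the control arrays, and fell 1.67-fold (log2 change -0.74 ± 0.12, SE, limma adjusted p = 0.0422). P2ry6 lost the threshold in each fit that left out an array, with adjusted p of 0.0776 to 0.224. It has 1 probe set, and its adjusted p was also above the threshold with genes above the median level alone (0.0522), and where the other genes were read by their averaged probe sets (0.0521) or by the one with the largest SD (0.0615). The engulfment regulator Dock1 had a change of -0.53 and the sphingosine-1-phosphate receptor S1pr1 of -0.55, and the median of the list was -0.06.

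**Figure D4:**
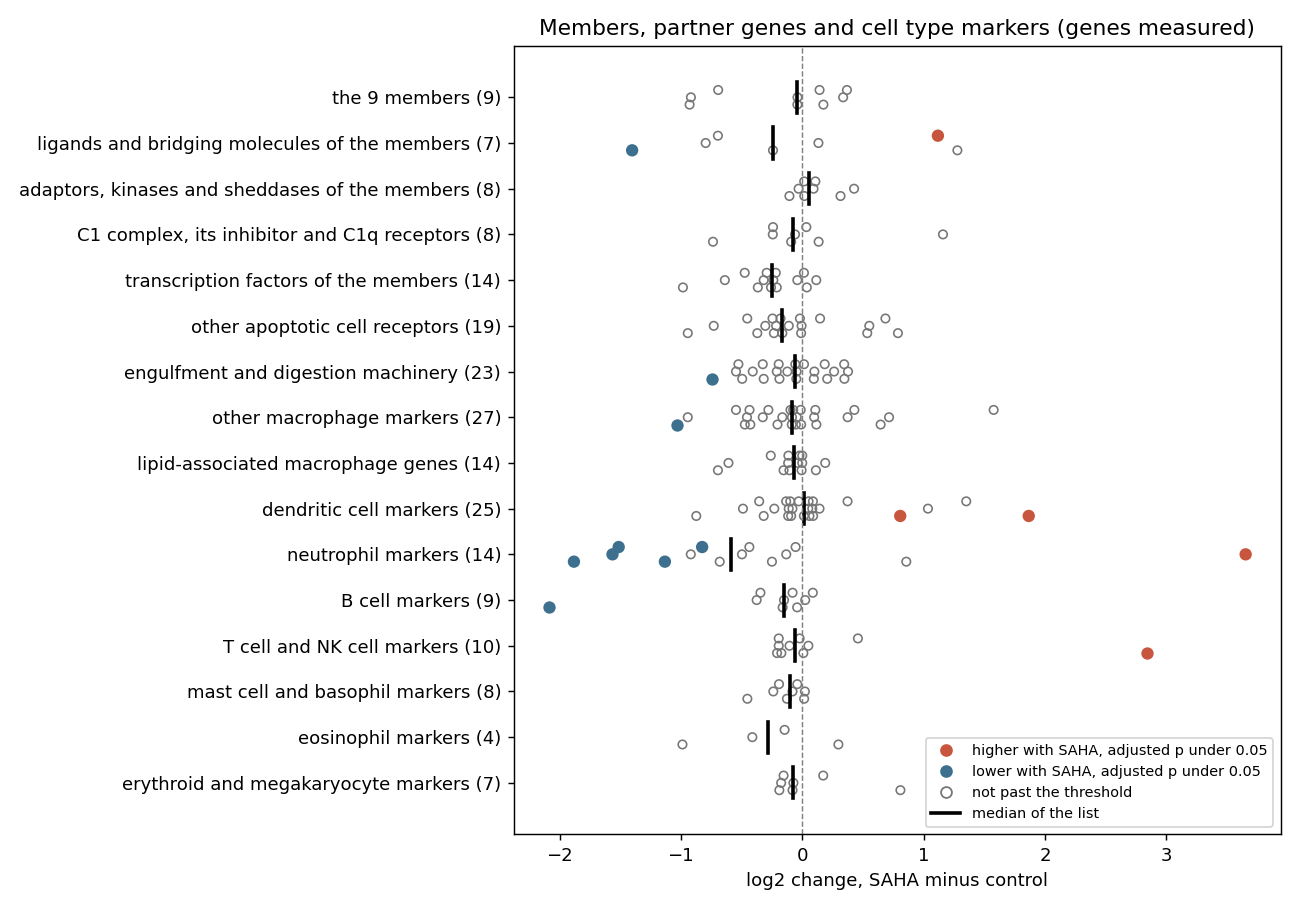
Log2 change, SAHA minus control (horizontal axis), of every measured gene on each list (rows, number of genes in brackets), with filled points for genes past the adjusted p threshold and black bars for list medians. None of the 9 members is filled, and the filled points beside them include Gas6, Clu and P2ry6.

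Of 27 other macrophage markers 1 passed, lower, where 0.709% of all genes passed lower. Slc11a1, the phagosomal metal transporter NRAMP1, had values of 10.10 and 10.23 log2 units on the SAHA arrays, against 11.16 and 11.23 on the control arrays, and fell 2.04-fold (log2 change -1.03 ± 0.13, SE, limma adjusted p = 0.0213). It lost the threshold without SAHA replicate 1 (0.141) and without SAHA replicate 2 (0.0770). Ccr2, the chemokine receptor of monocytes, had a change of 1.58 ± 0.33 (SE, adjusted p = 0.0732). The list had 8 changes above 0 and 19 below, with a median of -0.08. Both SAHA arrays were above both control arrays in 5 of its genes (21.1% of all genes) and below them in 10 (29.6%). Its summed level, on the log2 scale after adding the linear values, was 16.62 to 16.67 on the SAHA arrays and 16.62 to 16.66 on the control arrays. Between 40.6% and 45.9% of that sum was Lyz2 and Ctsd, named after their values were seen, so it says little about the other genes. None of 14 lipid-associated macrophage genes passed, with Cst7 at -0.61 and Fabp5 at -0.26 and a median of -0.07.

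Among 25 measured dendritic cell markers 2 passed, both higher, where 1.52% of all genes passed higher. Clec10a, a galactose-type lectin, rose 3.65-fold (1.87 ± 0.19, SE, limma adjusted p = 0.0140), and Irf4, a transcription factor of conventional dendritic cells, rose 1.75-fold (0.81 ± 0.14, adjusted p = 0.0431). Irf4 did not pass when its 2 probe sets were averaged (0.53, limma adjusted p = 0.215), with the probe set of largest SD (0.0606), among genes above the median level (0.0532), without either SAHA array (0.154 to 0.279) or without control replicate 2 (0.105). Clec10a did not pass without SAHA replicate 1 (0.0694) or SAHA replicate 2 (0.0539). The summed level of this list was 16.91 to 16.93 log2 units on the SAHA arrays and 16.82 to 16.86 on the control arrays, and its median change was 0.01. Cd24a had values of 12.98 and 12.93 on the SAHA arrays, against 12.03 and 11.18 on the control arrays. Its change was 1.35 and that of Cd86 was 1.04, and neither passed (limma adjusted p = 0.0591 and 0.248). The summed level without these bright genes was not taken. The list had 13 changes above 0 and 12 below. Both SAHA arrays were above both control arrays in 5 of its genes (21.1% of all genes) and below them in 6 (29.6%). Of those below, Dpp4, named after its values were seen, had a change of -0.87 (limma adjusted p = 0.0909).

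Markers of other cells also differed between the groups, where over all genes 1.52% passed higher and 0.709% lower. Of 14 neutrophil markers 5 were lower (S100a8, S100a9, Ngp, Camp and Ltf, with log2 changes of -0.82, -1.51, -1.88, -1.13 and -1.56) and Prtn3 was higher (3.65), and the median was -0.59. Without SAHA replicate 1 none of those 5 genes passed (limma adjusted p of 0.0593 to 0.204). S100a8 did not pass whichever array was left out (0.0582 to 0.204), Camp and Ltf did not without SAHA replicate 2 (0.160 and 0.0606), and Camp did not without control replicate 2 (0.0622). The summed level of the list, 13.20 to 13.43 log2 units on the SAHA arrays and 12.82 to 13.21 on the control arrays, overlapped between the groups, while 12 of the 14 markers had changes below 0. Between 45.4% and 77.0% of that sum was the collagenase gene Mmp8, named after its values were seen, with a change of 0.86 (adjusted p = 0.143 in limma).

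Of 9 B cell markers Cd22, an inhibitory receptor, was lower (-2.09) and did not pass without SAHA replicate 1 (limma adjusted p = 0.0877) or SAHA replicate 2 (0.0667). The summed level of 8.82 on both SAHA arrays and 9.87 to 10.37 on the control arrays was 40.4% to 81.0% Cd22 itself. Of 10 T cell and NK cell markers Klrd1, an NK receptor subunit, was higher (2.84), and the summed level of 9.38 to 9.95 on the SAHA arrays and 8.68 to 8.89 on the control arrays was 11.5% to 62.2% Klrd1. The T cell coreceptor Cd4 had a change of 0.01.

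No mast cell, eosinophil, erythroid or megakaryocyte marker passed, with medians of -0.10 over 8 mast cell markers, -0.28 over 4 eosinophil markers and -0.08 over 7 erythroid and megakaryocyte markers. Of the 8 mast cell markers 4 lay under the 25th percentile on all arrays. Gata2, a transcription factor of mast cells and progenitors, had a change of -0.45. The summed level of the erythroid and megakaryocyte list was 13.89 to 13.97 on the SAHA arrays and 13.47 to 13.54 on the control arrays, and 96.9% to 98.2% of it was the platelet chemokines Pf4 and Ppbp. Ppbp had a change of 0.81 (limma adjusted p = 0.0773), Pf4 of 0.17 and the platelet integrin Itga2b of -0.19, while the erythroid genes Hba-a1, Klf1 and Gata1, named after their values were seen, had changes of -0.07, -0.15 and -0.17. The part of these cells in the values of Mertk and Trem2 was not tested.

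The genes most like the 3 members with an absolute log2 change of 0.5 or more were found by the Euclidean distance between values centred on each gene's own mean, over 4 arrays and among 9088 genes with a mean above the median of genes. For Mertk these were Speg, a muscle-type kinase (distance 0.0300, log2 change -0.89), and the phosphatase Cpped1 (0.0501, -0.94). For Trem2 they were the RNA exosome subunit Exosc10 (0.0471, -0.70) and the steroid reductase family member Srd5a3 (0.0515, -0.73). For Maf they were Sirpb1a, a signal-regulatory protein (0.327, -0.90), and Mucl1 (0.364, -1.10). Like Maf, Sirpb1a was higher on the array numbered 2 in both groups, at 10.65 and 12.15 on the SAHA arrays and 11.94 and 12.65 on the control arrays. With 4 arrays such likeness is a description of these arrays alone.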

How the data were processed

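Gene expression was measured on 4 Affymetrix arrays, 2 of SAHA-treated and 2 of control dendritic cells, from biotinylated cRNA made from 6 µg of Trizol-extracted RNA, per the labels' protocols. Per probe set, the authors deposited a log2 value for each array. The scale was judged from the range, 2.59 to 14.97, and the like medians of the arrays, 5.34 to 5.35, and their normalization was kept. The submitters' processing notes name R 2.7. The sources used here do not give the method of summarising or normalizing probes.

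Of 45101 probe sets 34958 had 1 gene symbol in the platform annotation, which can be old, 932 had several and 9211 none. Symbols were updated by Entrez identifier, found in RefSeq for 34754. Each gene was read by its probe set with the highest mean, giving 18194 genes.

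The groups, taken from the sample titles, were compared by limma's two-sided moderated test (version 3.58.1, R 4.3.3, lmFit, then eBayes with trend), with Benjamini-Hochberg adjustment over all genes and a threshold of 0.05. The fit was tested on simulated data. An SE is moderated, and the 25th percentile of an array marks dim probe sets. An interval is 95% for each gene alone, without adjustment over all genes. All members were named, with, of each list, genes past the threshold, the 3 largest changes above the median level, and partners fixed by name. Itgax, Cd74, Zbtb46, Flt3, Kit, Xcr1, Adgre1, Lyz2, Cd163, Timd4, Lyve1, Vsig4, Clec4f, Folr2, Mrc1 and Siglec1 are named only to check the cells. H2-Aa, Ccl22 and Ccr7, named for the same check, were picked after their values were seen. The members, lists, motifs and tests were chosen with earlier results of these data known. Alternatives are those in the closing section.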

Additional observations from a re-analysis of the deposited data

How the results depend on the processing

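No member passed the threshold in the fits without the intensity trend, with quantile normalization, an offset of 32 on the linear scale, low values raised to the 20th percentile (a floor), genes above the median level alone, averaged probe sets, the probe set with the largest SD, or any array left out. With robust spread 1 passed, lower (Mertk). Over all genes the count was 405, but 226 of 9097 genes above the median level and 0 with the floor (3034 at an unadjusted p under 0.05), where the cause was not tested, and 31 (without SAHA replicate 1) to 529 (without control replicate 1) when 1 array was left out. It was 90 without SAHA replicate 2.

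With the replicate number as a replicate block 3616 genes passed, among them 2 higher members (Axl and C1qa) and 3 lower (Maf, Mertk and Trem2). Same-numbered deviations correlated at 0.57 across genes, but the labels do not say that a number marks a shared culture and 2 pairs do not settle it, so this fit was not used for calls.

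The members' median change stayed between -0.26 and -0.0017 in all of these settings. Leaving out 1 array turned the sign of the change for 5 members, none of which passed, with ranges of -0.11 to 0.035 for Csf1r, -0.33 to 1.01 for C1qa, -0.13 to 0.41 for C1qb, -0.26 to 0.61 for C1qc and -0.10 to 0.017 for Gpnmb. The same held for Apoe (-2.0 to 0.61), Pros1 (-0.19 to 0.45), Hcst (-0.0058 to 0.22) and Tyro3 (-0.013 to 0.20). The cause was not tested. Genes named only to describe the cells or lists were not refitted one by one. With the floor all 14 named genes that had passed lost the threshold. Without control replicate 1 Cd93 (adjusted p = 0.00902 in limma) and Nr1h3 passed, without control replicate 2 Thbs1 (0.0354) and Cd86 (0.0265) did, and Cd24a did without either. Depth does not apply to arrays, and the second probe set of Axl, under the 25th percentile throughout, can show little.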
